A study of Mus musculus with 16 samples.

Results

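Cajal-Retzius (CR) cells were looked for by their RNA among the nuclei of the microdissected mouse dentate gyrus (DG). Of 17015 nuclei, 95 were chosen by unique molecular identifiers (UMIs, 1 for each captured RNA molecule): at least 3 UMIs summed over *Reln*, *Trp73*, *Ndnf*, *Lhx1*, *Lhx5* and *Ebf3*, from at least 2 of these genes, and at most 1 UMI summed over *Gad1*, *Gad2*, *Mog*, *Gja1* and *Prox1*. A barcode counted as a nucleus if it had 501 to 8916 UMIs, 251 to 3307 genes, less than 2.787% mitochondrial UMIs and 500 or more counts of accessible chromatin (ATAC) in peaks. The study asked how the V321L mutation of *Nrg1*, the gene of the signalling protein neuregulin 1, alters the neurons of the DG. RNA and ATAC were read from the same nuclei in 1 Multiome library per mouse, from 4 wild-type mice (WT, labelled VV) and 4 mice homozygous for V321L (labelled LL), with 2 females and 2 males of each genotype. The labels name no other allele or agent, and the age of these 8 mice was not given in the sources used here.

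CR cells are early-born glutamatergic neurons that come from the margins of the cortex, among them the cortical hem, and settle under the pia and along the hippocampal fissure, next to the molecular layer of the DG. They secrete reelin, the product of *Reln*, which guides the migration and layering of neurons through the receptors encoded by *Vldlr* and *Lrp8* and the adaptor encoded by *Dab1*. Most CR cells of the neocortex die after birth, whereas many of those in the hippocampus persist. *Reln* and *Ndnf* are also used by some GABAergic interneurons, so they do not mark CR cells alone. *Trp73* (a p53 family transcription factor), *Ebf3* (an EBF family transcription factor) and the LIM homeobox genes *Lhx1* and *Lhx5* are the more specific markers.

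The CR nuclei were few and shallow. The WT mice gave 6 nuclei in F1, 19 in F2, 3 in M1 and 8 in M2, together 36 nuclei with 69103 UMIs. The V321L mice gave 19 in F1, 16 in F2, 11 in M1 and 13 in M2, together 59 nuclei with 89305 UMIs. Their median depth was 1237 UMIs in WT and 1229 in V321L, whereas that of nuclei with granule cell markers was 2108 in WT and 4001 in V321L. The libraries of the genotypes also differed in median mitochondrial share, which was 0.113% in WT and 1.02% in V321L CR nuclei and 0.104% and 0.746% in the other nuclei. No barcode was a CR nucleus in more than 1 library, and 2 CR barcodes were nuclei of another library too. A doublet score marked 2 of the 95.

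The marker values that chose the nuclei are given as a description. All 95 held *Reln* and 93.7% held *Ndnf*. *Ebf3* was detected in 40.0%, *Trp73* in 33.7%, *Lhx1* in 9.5% and *Lhx5* in 6.3%. The 198 GABAergic nuclei were chosen by *Gad1*, *Gad2* and *Slc32a1*, with at most 1 UMI over *Trp73*, *Lhx1*, *Lhx5*, *Ebf3*, *Mog* and *Gja1*. Of them 59.1% held *Reln* and 12.1% *Ndnf*, and 0 held a UMI of *Ebf3* or *Trp73*. This 0 allows up to 1.52% of nuclei with such a UMI and does not limit how many express the genes. It also rests partly on that choice, which left out nuclei with more UMIs of these genes. Those GABAergic nuclei were deeper, with a median of 4806 UMIs. Among 8240 nuclei with granule cell markers, 0.595% held *Reln* and 0.146% *Trp73*, at a median of 3043 UMIs. These too were chosen with at most 1 UMI over a set of genes that included *Trp73*. Free RNA in barcodes of at most 100 UMIs held *Reln* at 58.0 CPM (counts scaled to a library of 1e6) in WT and 20.3 in V321L, against 7046 CPM over the CR nuclei. The gene *Reln* starts on chromosome 5 at 22344690 to 22344702 in the mm10 genome, as the files give it. Per mouse, *Reln* stood at 15910, 4158, 3825 and 3819 CPM in CR nuclei of WT F1, F2, M1 and M2, and at 6011, 10340, 10840 and 7840 CPM in V321L F1, F2, M1 and M2. The genotypes overlapped, and WT F1 was the highest mouse.

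Few nuclei lay near the limit of 3 marker UMIs, but 40 of the 95 held UMIs of exactly 2 marker genes, the fewest allowed. The limit of 1 UMI over the excluded genes was reached by 8. The median CR nucleus held 14 marker UMIs and the highest 48, while 2 held exactly 3 and 88 held at least 6. Just outside stood 3 nuclei with 2 marker UMIs from 2 genes, and 47 nuclei with 3 or more from 1 gene, of which 9 held *Slc32a1*. A further 38 nuclei met the marker limits but held too many UMIs of the excluded genes, 33 of them with *Gad1* or *Gad2*. *Reln* and *Ndnf* alone chose 34 of the 95, and the other 61 held a UMI of *Trp73*, *Lhx1*, *Lhx5* or *Ebf3*.

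**Figure D1:**
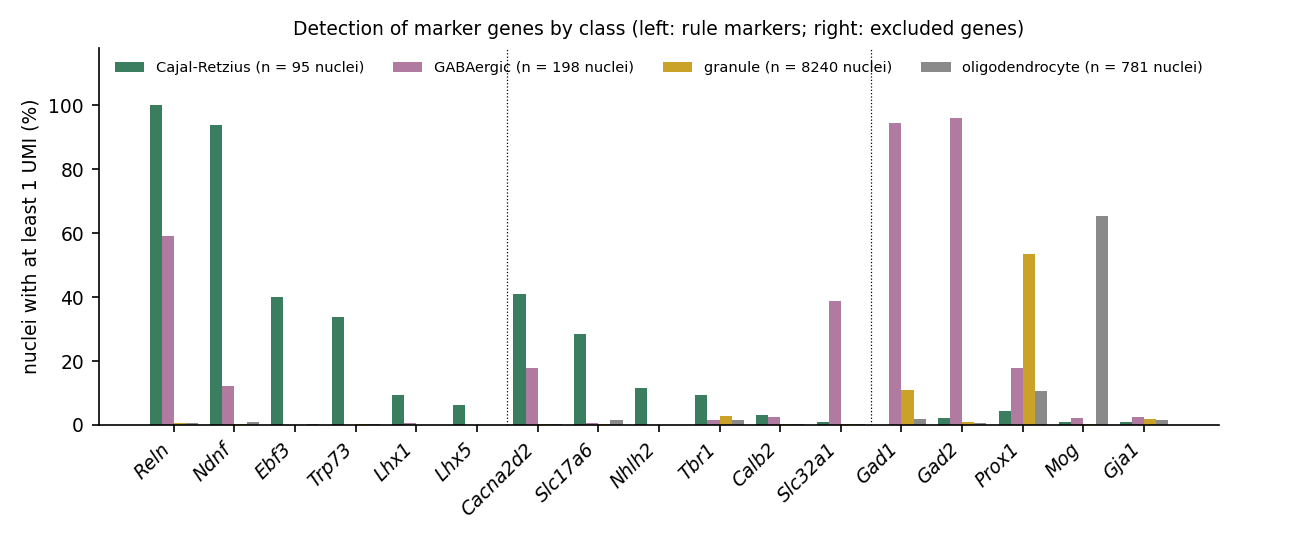
Share of nuclei with at least 1 UMI (y axis, %) of each marker gene (x axis) in 4 classes of nuclei, with the number of nuclei in the legend; the 6 genes of the rule are on the left and the 5 excluded genes on the right. *Reln* and *Ndnf* were found in nearly all CR nuclei, and *Cacna2d2* and *Slc17a6*, which the rule did not use, in 41.1% and 28.4% of them. The GABAergic, granule and oligodendrocyte classes were chosen with at most 1 UMI over sets of genes that included *Trp73*, *Lhx1*, *Lhx5* and *Ebf3*.

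The set was not uniform. Over 12 GABAergic markers that the rule did not use, 66 of the 95 nuclei held 0 UMIs, whereas 10 held between 12 and 117. Of these 10, 8 came from WT mice (6 from F2, 1 from M1 and 1 from M2) and 2 from V321L mice (1 from F2 and 1 from M2). Only 1 of the 10 held a UMI of *Trp73*, *Lhx1*, *Lhx5* or *Ebf3*, against 60 of the other 85. Their median over 16 further CR identity genes was 0.5 UMIs, against 4 in the other 85. Most of the GABAergic signal was *Adarb2*, an RNA-editing family gene of interneurons derived from the caudal ganglionic eminence, with 564 of the 649 UMIs. Of the 12 markers, 7 held UMIs. Besides *Adarb2* these were *Cnr1*, *Nxph1*, *Dlx6os1*, *Sst*, *Npy* and *Slc32a1*, with 85 UMIs together. *Slc32a1*, the vesicular GABA transporter, had 1 UMI. *Pvalb*, *Vip*, *Lamp5*, *Dlx1* and *Lhx6* were at 0 in all 95 nuclei. The 12 markers summed to 4098 CPM in the CR nuclei against 1761 in the others. Of the 5 that were tested between these classes, as described below, 2 were lower with the trimmed-mean scaling (TMM), beside 15.6% of all genes. With scaling by library size 0 were lower, beside 3% of all genes. The shares of all genes that were higher were 1.74% and 3.75%. *Cnr1*, the CB1 cannabinoid receptor gene, was higher under both (297 against 44.9 CPM, log2 difference 1.55 ± 0.38 with TMM, edgeR adjusted p = 0.000730). The 10 nuclei held 37 of its 47 UMIs, and without them its edgeR adjusted p was 0.880. These 10 nuclei go against the label, so each comparison below was also run without them. The cut at 10 UMIs leaves in other nuclei that held *Erbb4*, a gene high in the GABAergic nuclei, as given below.

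**Figure D2:**
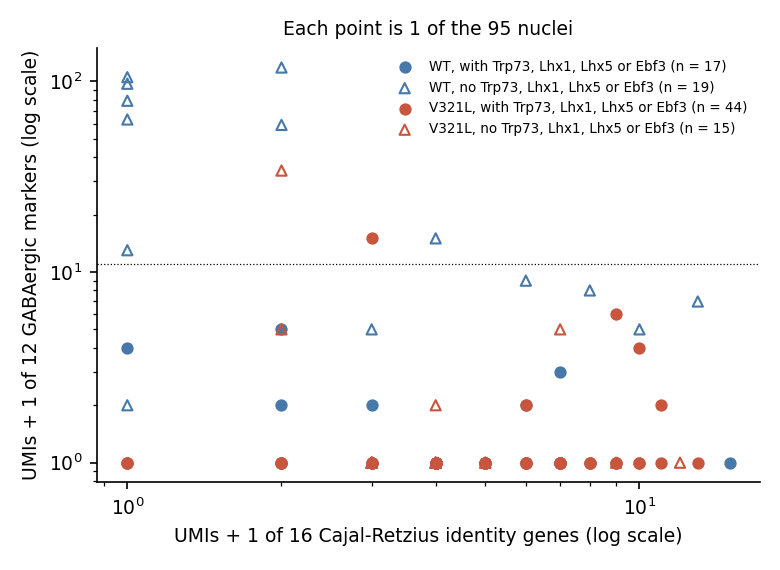
Each point is 1 of the 95 CR nuclei, by its UMIs + 1 of 16 CR identity genes (x axis, log scale) and of 12 GABAergic markers (y axis, log scale); color gives the genotype and filled points hold *Trp73*, *Lhx1*, *Lhx5* or *Ebf3*. The 10 nuclei above the dotted line, which marks 10 UMIs, have few identity UMIs, and 8 of them are WT.

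CR identity genes that the rule did not use were found in part of these nuclei. *Cacna2d2*, a calcium channel subunit, was detected in 41.1% of the 95, *Slc17a6*, the vesicular glutamate transporter VGLUT2, in 28.4%, *Nhlh2*, a helix-loop-helix transcription factor, in 11.6% and *Tbr1*, a T-box transcription factor of early-born glutamatergic neurons, in 9.5%. In nuclei with granule cell markers these shares were 0.194%, 0.158%, 0.0607% and 2.88%, at more than the depth of the CR nuclei. *Cacna2d2* was not limited to CR nuclei, since 17.7% of GABAergic nuclei held it at a median of 4806 UMIs (46.7 CPM, against 379 in CR nuclei). Within the CR nuclei, the 61 with *Trp73*, *Lhx1*, *Lhx5* or *Ebf3* held *Cacna2d2* in 54.1%, *Slc17a6* in 32.8%, *Nhlh2* in 16.4% and *Tbr1* in 11.48%. The 34 chosen by *Reln* and *Ndnf* alone held them in 17.6%, 20.6%, 2.94% and 5.88%. At their median of 1548 UMIs, *Cacna2d2* stood at 93.6 CPM in these 34, on 7 UMIs, against 46.7 CPM in the deeper GABAergic nuclei, on 44 UMIs. That difference was not tested. *Slc17a6* was found in 0.505% of GABAergic nuclei, *Tbr1* in 1.52% and *Nhlh2* in 0 of 198, which allows up to 1.52% of nuclei with a UMI. *Nhlh2* had 12 UMIs in the 95 nuclei and 14 in all other nuclei. *Zic1*, a transcription factor of the cortical hem lineage, had 9 UMIs in the CR nuclei (56.8 CPM) against 84 in the others (1.84 CPM). *Calb2* (calretinin), often used to stain CR cells, had 3 UMIs, all in V321L mice. *Nhlh2*, *Zic1* and *Calb2* were below the filter on low counts and were not tested.

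RNA counts were then summed over the CR nuclei and over all other nuclei of each mouse and compared within 7 mice, since WT M1 had fewer than 5 CR nuclei. Of 9926 genes tested with edgeR's quasi-likelihood test, 173 were higher in CR nuclei (1.74% of those tested) and 1546 lower (15.6%) at a Benjamini-Hochberg adjusted p under 0.05. This split depended on the scaling. The trimmed-mean (TMM) scaling placed the median gene at -0.75 on the log2 scale, while scaling by library size placed it at 0.03 and called 372 higher and 298 lower. The log2 differences from the other nuclei given below are those with TMM. By library size the rises were larger and the falls smaller, as for *Nrg1* (1.54 with TMM and 2.44 by library size), *Gria4* (1.52 and 2.40) and *Dab1* (-2.57 and -1.66). All 173 genes that were higher with TMM were also higher by library size, whereas 298 of the 1546 lower genes were. Among 486 genes in nuclei matched for UMI count, 65 were higher and 95 lower. In WT mice alone 22 genes were higher and 7 lower, and in V321L mice alone 158 were higher and 701 lower.

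Of the 16 identity genes, 7 were tested. *Cacna2d2*, *Slc17a6*, *Tbr1*, *Emx2* and *Car10* were higher, beside 1.74% of all genes with TMM and 3.75% by library size (median of the 7, 1.68 against -0.75 over all genes tested with TMM), *Ebf1* passed in neither direction, and *Lmo3* was lower with TMM but not by library size. *Cacna2d2* stood at 309, 57.4 and 93.2 CPM in WT F1, F2 and M2 and at 501, 602, 850 and 579 CPM in V321L F1, F2, M1 and M2. In the other nuclei of these mice it lay between 1.70 and 7.22 CPM, so the classes did not overlap, and the log2 difference was 6.0 ± 0.34 (SE, edgeR adjusted p = 2.67e-65). *Slc17a6* lay between 140 and 463 CPM in the CR nuclei (median 158) and between 0.721 and 26.3 in the others, again without overlap, with a log2 difference of 4.48 ± 0.40 (edgeR adjusted p = 2.06e-26). *Car10*, a carbonic anhydrase-related protein, had 1357 CPM against 274 over all nuclei of each class and was higher in 7 of 7 mice. *Tbr1* and *Emx2*, a homeobox gene of the cortical hem region, rested on 11 and 8 UMIs and were higher in 4 of 7 mice. Without the 10 nuclei rich in GABAergic markers the same 5 genes passed (*Emx2* at an edgeR adjusted p of 0.0123), and *Emx2* did not pass among nuclei with *Trp73*, *Lhx1*, *Lhx5* or *Ebf3* (edgeR adjusted p = 0.0603).

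Promoters of the genes that were higher were read from RefSeq (GRCm38.p6, 250 bases before to 50 after each gene start), where 18 of the 24 rule markers, identity genes and other genes named for their rise were matched, with 25 promoters. They were searched on both strands for the palindromic consensus motif of EBF factors and for TAATTA, the core bound by LIM homeodomain and other homeodomain factors. The EBF motif was in 0 of the 25 and in 0.904% of all 32851 promoters of that table. TAATTA was in 4 of the 25 (16%), against 5.29% of all. These 4 are shown because they belong to genes that were higher in CR nuclei, with TAATTA in capitals: *Slc17a6* at chr7:51624387-51624686 (plus strand, 81 bases before the start), *Tbr1* at chr2:61804203-61804502 (plus strand, 33 and 18 bases before), *Tmem163* at chr1:127677972-127678271 (minus strand, 36 bases before) and *Emx2* at chr19:59458440-59458739 (plus strand, 36 bases after).
Slc17a6: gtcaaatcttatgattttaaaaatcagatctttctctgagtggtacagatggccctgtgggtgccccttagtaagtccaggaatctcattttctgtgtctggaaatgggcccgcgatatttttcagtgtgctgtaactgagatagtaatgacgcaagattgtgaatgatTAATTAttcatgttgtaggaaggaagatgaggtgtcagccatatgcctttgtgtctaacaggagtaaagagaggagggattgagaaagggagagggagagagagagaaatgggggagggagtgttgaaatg
Tbr1: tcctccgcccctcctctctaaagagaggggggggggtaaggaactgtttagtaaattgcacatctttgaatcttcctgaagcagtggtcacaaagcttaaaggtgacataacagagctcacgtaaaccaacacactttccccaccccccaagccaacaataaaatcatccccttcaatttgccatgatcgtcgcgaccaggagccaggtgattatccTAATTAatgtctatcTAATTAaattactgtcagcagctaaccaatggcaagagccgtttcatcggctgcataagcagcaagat
Tmem163: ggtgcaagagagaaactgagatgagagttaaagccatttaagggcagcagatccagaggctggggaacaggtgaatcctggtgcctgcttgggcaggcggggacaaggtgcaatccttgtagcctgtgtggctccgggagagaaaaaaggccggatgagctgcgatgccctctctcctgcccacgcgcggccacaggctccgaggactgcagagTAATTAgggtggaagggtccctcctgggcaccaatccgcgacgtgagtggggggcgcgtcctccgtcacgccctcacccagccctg
Emx2: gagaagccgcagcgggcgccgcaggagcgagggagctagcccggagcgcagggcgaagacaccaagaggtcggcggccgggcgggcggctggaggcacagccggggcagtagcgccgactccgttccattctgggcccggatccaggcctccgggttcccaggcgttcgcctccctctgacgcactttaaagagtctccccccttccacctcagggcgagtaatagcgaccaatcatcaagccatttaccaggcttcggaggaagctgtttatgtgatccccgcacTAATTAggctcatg
A match is a string of letters in these windows and no measured site.

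The 15 genes named for the largest rise were chosen among genes with 20 UMIs or more that passed and were higher in all 7 mice. Among them were *Cacna2d2*, *Gm29683*, *Tmem163*, *Cdh4*, *Dach1*, *Hs3st5*, *B130024G19Rik*, *Slc17a6*, *Utrn*, *Kctd8*, *Plekha7*, *Rbms1*, *Angpt1* and *Kcnip1*. All 15 also passed by library size, with DESeq2 and without the 10 nuclei rich in GABAergic markers, as did the 14 that could be tested among nuclei with *Trp73*, *Lhx1*, *Lhx5* or *Ebf3* and the 4 that could be tested in matched nuclei. In WT mice alone *B130024G19Rik*, *Angpt1* and *Kcnip1* did not pass (edgeR adjusted p = 0.198, 0.194 and 0.123). *Dach1*, a transcriptional regulator related to *Drosophila* dachshund, stood at 6023, 1491 and 1397 CPM in the CR nuclei of WT F1, F2 and M2 and at 2433, 2409, 2976 and 737 CPM in V321L F1, F2, M1 and M2. The other nuclei lay between 11.7 and 52.1 CPM, far below every mouse's CR nuclei, and the log2 difference was 5.24 ± 0.39 (edgeR adjusted p = 1.89e-37). *Tmem163*, a zinc transporter of synaptic vesicles, lay between 140 and 1205 CPM (median 673) against 4.69 to 11.9, and *Cdh4* (R-cadherin) between 115 and 992 (median 737) against 5.41 to 13.1. Neither overlapped between the classes.

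The other named genes were of mixed kinds. *Hs3st5*, a heparan sulfate sulfotransferase, had 865 CPM over the CR nuclei against 17.3 over the others. *Utrn*, the dystrophin relative utrophin, had 1155 against 36.3. *Kctd8*, an auxiliary subunit of GABA-B receptors, had 631 against 25.2. *Angpt1* (angiopoietin 1), a secreted ligand of the TIE2 receptor of blood vessels, had 309 against 15.4, and *Cxcl12*, a chemokine of the meninges that also attracts CR cells, had 152 against 26.8 (edgeR adjusted p = 0.000346, higher in 5 of 7 mice). *Kcnip1*, a potassium channel interacting protein, had 385 against 22.0. *Gm29683* and *B130024G19Rik* are noncoding transcripts that start near each other on chromosome 7, at 70337822 and 70365159, and each had 37 UMIs.

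Vascular and meningeal cells were looked for among the markers, since CR cells lie under the pia. *Dcn*, *Col1a1*, *Col1a2*, *Cldn5*, *Pdgfrb* and *Slc6a13* were at 0 in all 95 nuclei, and the 8 markers summed to 3 UMIs. This was 18.9 CPM against 19.9 in the other nuclei, so the zeros do not show a lower level than in those. The rule's limits on *Mog*, *Gja1* and *Prox1* act on oligodendrocytes, astrocytes and granule cells directly. Oligodendrocyte markers summed to 221 CPM against 887 in the other nuclei, and all 5 that were tested were lower (2 of the 5 by library size). Astrocyte markers summed to 391 CPM against 937, microglial markers to 152 against 176 and granule markers to 1938 against 3750. Markers of oligodendrocyte precursors summed to 126 CPM against 59.0 on 20 UMIs, with *Vcan* the most abundant, *Gpr17* at 0 and *Cspg4* called higher (edgeR adjusted p = 0.00841, and 0.383 among nuclei with *Trp73*, *Lhx1*, *Lhx5* or *Ebf3*). Their part in the results was not tested. Pyramidal and mossy cell markers summed to 183 CPM against 591. Neuroblast markers had 16 UMIs, with *Dcx* the most abundant at 7. Of the markers tested, 4 of 6 for granule cells, 3 of 5 for pyramidal and mossy cells, 2 of 5 for astrocytes, 0 of 3 for microglia and 1 of 3 for neuroblasts were lower with TMM, beside 15.6% of all genes. By library size these were 3, 2, 1, 0 and 0, beside 3% of all genes.

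**Figure D3:**
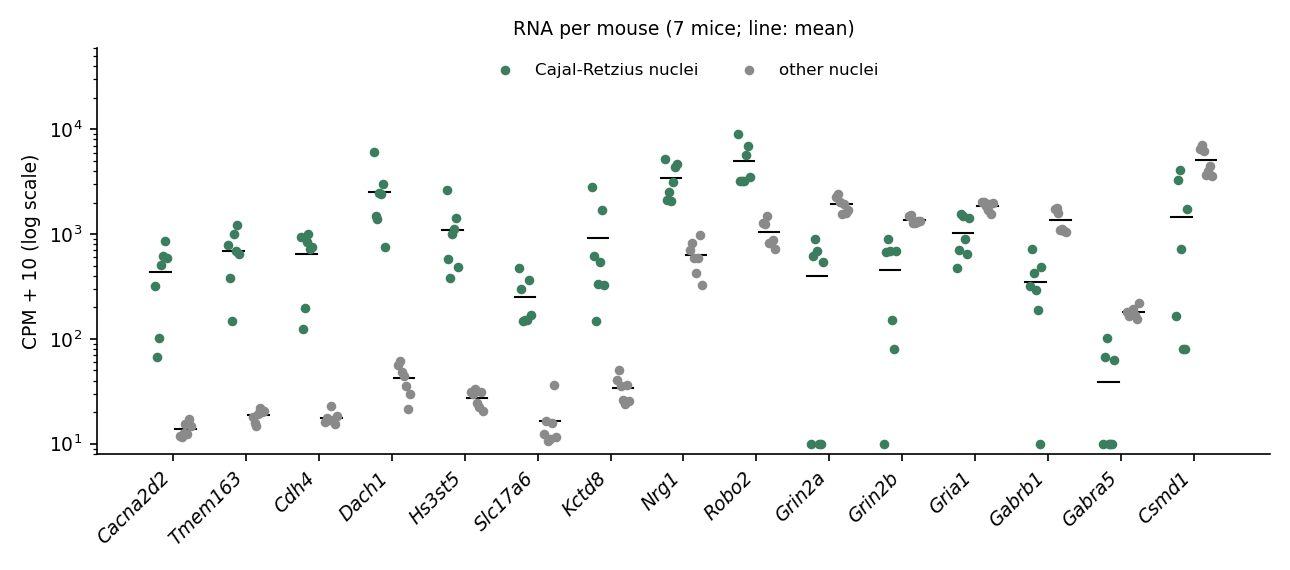
CPM + 10 (y axis, log scale) of 15 genes (x axis) in the CR nuclei and in the other nuclei of each of 7 mice (points), with the mean as a line. *Cacna2d2* to *Robo2* are higher in the CR nuclei of all 7 mice and *Grin2a* to *Csmd1* are lower in all 7.

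Among genes of reelin's own pathway, 0 of 16 tested were higher and 3 were lower, all 3 also by library size. Over all genes tested 1.74% were higher and 15.6% lower with TMM, and 3.75% and 3% by library size. The median of the 16 was -0.89 with TMM and -0.08 by library size, against -0.75 and 0.03 over all genes. *Dab1*, the intracellular adaptor that relays reelin, stood at 154, 2466 and 3214 CPM in WT F1, F2 and M2 and at 1217, 496, 0 and 684 CPM in V321L F1, F2, M1 and M2, below the other nuclei of the same mouse in 7 of 7. The log2 difference was -2.57 ± 0.43 (edgeR adjusted p = 2.34e-07). *Vldlr*, the very low density lipoprotein receptor, had 0 UMIs in the CR nuclei and 52.7 CPM in the others, which makes it at least 2.78-fold lower. *Adamts3*, a protease that cleaves reelin, had 3 UMIs (18.9 CPM, exact Poisson 95% interval 3.91 to 55.4, counting error only) against 126 CPM. *Lrp8*, the other reelin receptor, had 56.8 CPM against 50.7 and passed in neither direction.

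Of 6 tested genes of glutamate transmission 1 was higher and 4 were lower (median -1.40). *Slc17a6* was higher, while *Slc17a7* (VGLUT1), the transporter of granule and pyramidal cells, was lower, with 50.5 CPM against 198 (edgeR adjusted p = 5.46e-06) and 0 UMIs in the 3 WT mice of the comparison. The neuronal glutamate transporter gene *Slc1a1* was lower as well (37.9 against 130 CPM). *Slc1a2* was lower with TMM only. In the GABA group *Abat*, which breaks down GABA, did not pass with TMM and was higher by library size. For chloride transport, *Slc12a5* (KCC2, which extrudes chloride) had 25.3 CPM against 65.6 and *Slc12a2* (NKCC1, which imports it) 50.5 against 75.2. Of the 8 tested genes *Slc12a5* and *Stk39* were lower with TMM, beside 15.6% of all genes, and 0 were called by library size. The median of the 8 was -0.72 with TMM, against -0.75 over all genes. Among 9 tested genes of p53 family signalling and cell death, 1 was higher under both scalings, beside 1.74% of all genes with TMM, and the median was -1.08, against -0.75 over all genes. This was *Diablo*, a mitochondrial inhibitor of the XIAP protein, at 0, 28.7 and 0 CPM in WT F1, F2 and M2 and at 215, 354, 354 and 211 CPM in V321L F1, F2, M1 and M2. Only the V321L mice and WT F2 were above their other nuclei, which lay between 3.66 and 20.4 CPM.

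With TMM, where 15.6% of all genes tested were lower, 15 of 21 glutamate receptor genes were lower and 1 was higher (median -1.62). By library size, which called 298 of all 9926 genes lower, 10 of the 21 were lower and 3 higher. Of 14 GABA and glycine receptor genes, 9 were lower and 0 higher with TMM (median -2.02), and 4 lower and 1 higher by library size. *Grin2a*, an NMDA receptor subunit, stood at 0, 602 and 885 CPM in WT F1, F2 and M2 and at 680, 0, 0 and 526 CPM in V321L F1, F2, M1 and M2. The other nuclei lay between 1562 and 2380 CPM, above each of these, with a log2 difference of -3.30 ± 0.44 (edgeR adjusted p = 2.82e-11). *Grin2b* lay between 0 and 885 CPM against 1264 to 1517, *Gria1*, an AMPA receptor subunit, between 463 and 1537 against 1557 to 2002, and *Gabrb1*, a GABA-A receptor subunit, between 0 and 717 against 1048 to 1770. All 3 were lower in 7 of 7 mice and passed under both scalings, but *Gria1* did not pass in nuclei matched for UMI count (edgeR adjusted p = 0.403). *Gria4*, the AMPA subunit GluA4, was the exception. It lay between 927 and 2925 CPM (median 1134) in the CR nuclei and between 163 and 372 in the others, with a log2 difference of 1.52 ± 0.35 (edgeR adjusted p = 0.000388).

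Among voltage-gated channels, 2 of 23 tested genes were higher and 12 lower with TMM (median -1.13), and by library size 3 and 3, where all genes gave 1.74% and 15.6% with TMM and 3.75% and 3% by library size. The potassium channel genes *Kcnh7* (ERG3) and *Kcnq5* were higher under both. *Kcnh7* lay between 2736 and 7299 CPM against 379 to 625, with a log2 difference of 2.45 ± 0.39 (edgeR adjusted p = 2.96e-08), and *Kcnq5* between 1431 and 3552 against 200 to 981. *Kcnd2*, the A-type channel Kv4.2, was lower with 1559 CPM against 4181. Among guidance genes 2 of 20 were higher and 12 lower (median -2.04), and by library size 3 and 6, beside the same shares of all genes. *Robo2*, a Slit receptor, lay between 3183 and 8958 CPM against 708 to 1486, while its ligands *Slit1* (56.8 against 187 CPM) and *Slit3* (347 against 1174 CPM) were lower under both scalings. *Cxcr4*, the receptor of *Cxcl12* and a known CR gene, had 9 UMIs in CR nuclei of 3 V321L mice and of no WT mouse, and was not tested.

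The CR nuclei carried *Nrg1*, the gene that is mutated in the V321L mice. Its start sites span 31918391 to 32884797 on chromosome 8 (mm10). It stood at 5251, 2122 and 2515 CPM in the CR nuclei of WT F1, F2 and M2 and at 2040, 3153, 4323 and 4630 CPM in V321L F1, F2, M1 and M2. The other nuclei of these mice lay between 317 and 964 CPM, so the classes did not overlap, and the log2 difference was 1.54 ± 0.37 (edgeR adjusted p = 0.000744). The genotypes did overlap: CR nuclei had 3296 ± 1704 CPM in WT (SD, n = 3) and 3536 ± 1184 in V321L (SD, n = 4), with a log2 difference of 0.41 ± 0.39 (edgeR adjusted p = 0.571). The V321L change lies in the protein, and counts per gene do not show it. *Nrg2* was lower (82.1 against 221 CPM, under both scalings) and *Nrg3* was lower with TMM only (5171 against 5916 CPM). Of 9 genes of gamma-secretase and of proteases that cut neuregulins, 0 passed in either direction with TMM (median -0.29, against -0.75 over all genes). Over all genes 1.74% were higher and 15.6% lower. By library size 0 of the 9 passed as well (median 0.50, against 0.03), beside 3.75% higher and 3% lower of all genes.

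Among the genes with the largest fall were *Gm32647*, *Trpc6*, *Cntnap5a*, *Htr4*, *Ptk2b*, *Tanc1* and *Csmd1*, which were chosen among genes lower in 7 of 7 mice and were also lower by library size, with DESeq2, without the nuclei rich in GABAergic markers and among nuclei with *Trp73*, *Lhx1*, *Lhx5* or *Ebf3*. In WT mice alone *Cntnap5a*, *Ptk2b*, *Tanc1* and *Csmd1* did not pass (edgeR adjusted p = 0.212, 0.0789, 0.108 and 0.431). *Trpc6*, a cation channel gene, had 69.5 CPM against 357 and *Htr4*, a serotonin receptor gene, 63.1 against 251. Nuclei with granule cell markers held *Trpc6* at 474 CPM. *Csmd1*, a complement regulator at synapses, stood at 154, 3298 and 4099 CPM in WT F1, F2 and M2 and at 716, 70.9, 70.9 and 1736 CPM in V321L F1, F2, M1 and M2. It was lowest in V321L F2 and M1 and closest to the other nuclei (3551 to 7125 CPM) in WT F2 and M2.

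GABAergic nuclei are the class that also holds *Reln* and *Ndnf*, and the 92 CR nuclei of the 7 mice were compared with the 184 GABAergic nuclei of the same mice. Single CPM values of a class are over its nuclei in all 8 mice. Of 985 genes tested, 92 were higher (9.34%) and 146 lower (14.8%) in CR nuclei, and the median gene stood at -0.06. The 8 genes named for their rise were *Dach1*, *Pdzd2*, *Fat3*, *Nrg1*, *Maml3*, *Rbms1*, *Thsd7b* and *Car10*. *Dach1* had 1976 CPM in CR and 29.7 in GABAergic nuclei (log2 difference 6.15 ± 0.52, edgeR adjusted p = 4.76e-06). *Nrg1* lay between 2040 and 5251 CPM in CR nuclei and between 146 and 611 in GABAergic nuclei (3.76 ± 0.34, edgeR adjusted p = 6.67e-06), without overlap. *Fat3*, an atypical cadherin, lay between 1778 and 5869 CPM against 126 to 233, and *Maml3*, a Notch coactivator, between 606 and 1913 against 43.4 to 233. The genes named for their fall were *Pde11a*, *Sema3c*, *Nxph1*, *Erbb4* and *Rgs6*. *Pde11a*, a cyclic nucleotide phosphodiesterase, had 0 UMIs in CR nuclei and 374 CPM in GABAergic nuclei, at least 19.7-fold lower. *Nxph1*, the synaptic ligand neurexophilin 1, had 158 CPM against 2620 (-5.08 ± 0.60, edgeR adjusted p = 7.67e-05), and 17 of its 25 UMIs were in the 10 nuclei rich in GABAergic markers. Without these 10 nuclei 105 of 890 genes were higher and 185 lower, and all 13 named genes passed.

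*Nrg1* and its receptor *Erbb4* went in opposite directions between these classes. *Erbb4* had 1029 CPM in CR and 10950 in GABAergic nuclei (-4.79 ± 0.88, edgeR adjusted p = 0.00180). Per mouse it stood at 0, 2495 and 140 CPM in CR nuclei of WT F1, F2 and M2 and at 0, 779, 0 and 2684 CPM in V321L F1, F2, M1 and M2. It was at 0 in 3 of 7 mice, and it was 23.9 CPM in the nuclei with *Trp73*, *Lhx1*, *Lhx5* or *Ebf3* against 2153 CPM in those with *Reln* and *Ndnf* alone. The 10 nuclei rich in GABAergic markers held 74 of its 163 UMIs. The rest lay mostly in other nuclei with *Reln* and *Ndnf* alone, which the runs without those 10 keep. Of 15 glutamate receptor genes, 6 were lower too (*Grik1*, *Grin2a*, *Grik2*, *Grin3a*, *Grm5* and *Gria1*), and so were 3 of 6 GABA receptor genes, *Gabrg3* and *Gabrb2* among them, beside 14.8% of all 985 genes. All 9 were also lower without the nuclei rich in GABAergic markers, as was *Erbb4* (-5.79, edgeR adjusted p = 0.000662). *Kcnh7*, *Kcnq5* and *Robo2* were higher against this class as well, with log2 differences of 1.63, 1.14 and 1.84.

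The share of CR nuclei differed between the genotypes. It was 0.327%, 0.505%, 0.151% and 0.355% of nuclei in WT F1, F2, M1 and M2 and 0.921%, 0.792%, 0.726% and 0.818% in V321L F1, F2, M1 and M2. Every V321L mouse was above every WT mouse, with 0.335% ± 0.145 in WT and 0.815% ± 0.0811 in V321L (SD, n = 4 each; two-sided exact permutation test, p = 0.0286, the smallest that 4 against 4 can give). The 4 V321L mice also lay above the 4 WT mice, which gives the same smallest p each time and so no measure of stability, after thinning every nucleus to 1000 UMIs (0.280% and 0.670%) or 500 UMIs (0.254% and 0.739%), without the 10 nuclei rich in GABAergic markers (0.271% and 0.786%) and for nuclei with *Trp73*, *Lhx1*, *Lhx5* or *Ebf3* (0.168% and 0.620%). Thinning to 1000 UMIs left 1165 to 2679 nuclei in each WT mouse and 1397 to 1907 in each V321L mouse. Nuclei with these 4 markers made up 17 of 36 CR nuclei in WT and 44 of 59 in V321L. The share is of the recovered nuclei: the number of CR cells, how much of the fissure and pia each dissection took and the recovery of other classes cannot be told apart. The mean shares of other classes were also higher in V321L. GABAergic nuclei made up 0.900% ± 0.265 of nuclei in WT and 1.60% ± 0.393 in V321L, with overlap between the mice, and nuclei with oligodendrocyte markers 1.58% ± 0.632 and 8.66% ± 0.959, without overlap (SD, n = 4 each). Those with granule cell markers made up 46.2% ± 8.10 and 52.1% ± 3.31, with overlap. These shares were not compared by a test, and their part in the CR share was not tested.

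**Figure D4:**
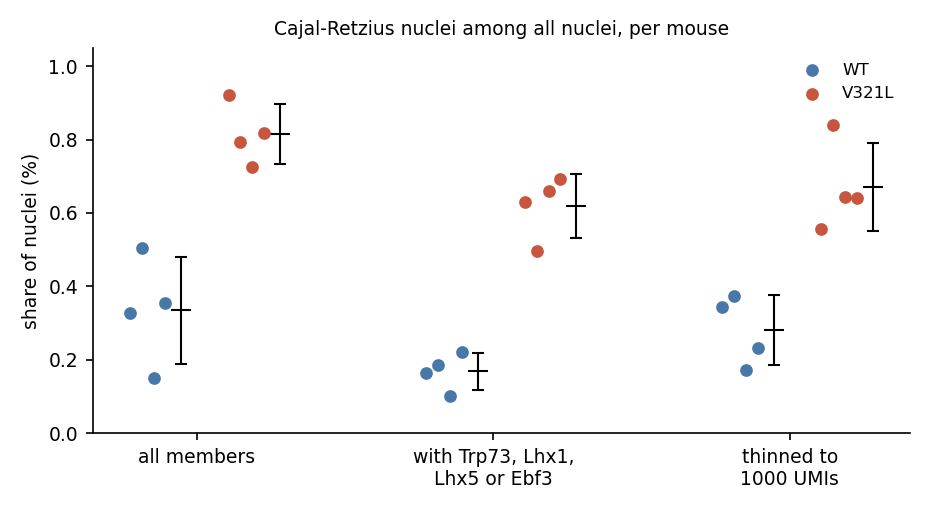
Share of nuclei (y axis, %) that are CR nuclei in each mouse (points) with the genotype mean as a line, for all CR nuclei, for those with *Trp73*, *Lhx1*, *Lhx5* or *Ebf3*, and after thinning to 1000 UMIs. The 4 V321L mice lie above the 4 WT mice in all 3 sets.

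Within the CR nuclei, 312 genes had enough counts to compare 3 WT with 4 V321L mice. In V321L, 27 were higher (8.65%) and 5 lower (1.60%) by edgeR. Markers of other cell types had other mean levels in the 2 genotypes within the CR nuclei, with overlap between the mice in each list. Granule markers summed to 3037 ± 1806 CPM in WT and 1124 ± 651 in V321L, GABAergic markers to 5308 ± 5415 and 667 ± 543, astrocyte markers to 829 ± 608 and 244 ± 252 and microglial markers to 260.2 ± 226.6 and 79.45 ± 100.9 (SD, n = 4 each). Neuroblast markers summed to 69.0 ± 109 and 84.1 ± 48.8 and those of oligodendrocyte precursors to 117.5 ± 150.7 and 92.7 ± 52.1. Pyramidal and mossy cell markers summed to 261 ± 197 and 123 ± 129 and oligodendrocyte markers to 314 ± 359 and 212 ± 223. Vascular and meningeal markers summed to 39.8 ± 79.7 and 22.1 ± 26.4, on 3 UMIs. These sums were not compared by a test, and the part of these markers in the calls was not tested. The balance toward higher genes was not stable, since without WT F1 61 were higher and 62 lower, and after thinning to 1000 UMIs 15 were higher and 11 lower. All 32 were apart between the genotypes, and so were 71 of all 312 genes tested (22.8%). *Malat1*, a nuclear long noncoding RNA, stood at 11740, 9119 and 9036 CPM in WT F1, F2 and M2 and at 37210, 40840, 48400 and 40310 CPM in V321L F1, F2, M1 and M2 (log2 difference 2.31 ± 0.09, edgeR adjusted p = 2.69e-07). The mean of the other nuclei of the same mice was also higher in V321L, with 9517 ± 1091 CPM in WT and 42880 ± 3310 in V321L (SD, n = 3 and 4).

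The 8 genes named for their rise were *Tmsb4x*, *Ubb*, *Rplp1*, *Rpl19*, *Cst3*, *mt-Co3*, *Pcsk1n* and *Atp6v0c*, among them genes of translation, protein turnover, secretion and the respiratory chain. *Tmsb4x* (thymosin beta 4) had 0 UMIs in WT and 65 in V321L CR nuclei, *Rplp1* 0 and 46, and *Rpl19* 0 and 38. These were at least 16.8-, 11.9- and 9.80-fold higher in V321L, taking 3 UMIs over the WT nuclei as the limit. *Ubb* (ubiquitin) had 2 and 50 UMIs, the 2 both in WT M1, and *Cst3* (cystatin C) 1 and 117. *mt-Co3*, a mitochondrial subunit of cytochrome oxidase, stood at 0, 57.4 and 46.6 CPM in WT and at 2755, 1629, 2764 and 3104 CPM in V321L (5.80 ± 0.63, edgeR adjusted p = 0.00102). Of the 27 genes, 5 were mitochondrial (*mt-* genes, 7 tested) and 2 ribosomal (2 tested), beside 8.65% of all 312 genes higher. The *mt-* genes took 0.188% ± 0.112 of the UMIs of CR nuclei in WT and 1.06% ± 0.335 in V321L (SD, n = 4 each), and 0.209% ± 0.0398 and 0.851% ± 0.295 in the other nuclei. Ribosomal protein genes took 0.0787% ± 0.0459 and 1.68% ± 0.674 in CR nuclei, and 0.0741% ± 0.0300 and 1.28% ± 0.495 in the others.

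The 5 lower genes were *Gm42418* and *AY036118*, which overlap ribosomal RNA sequence and may share reads, *Pclo* (the presynaptic protein piccolo), *Cnot2* and *Ube3a* (a ubiquitin ligase). *Gm42418* stood at 8649, 4560 and 3726 CPM in WT and at 608, 283, 567 and 526 CPM in V321L (-3.21 ± 0.41, edgeR adjusted p = 0.00147). *Pclo* had 1321 ± 126 CPM in WT and 243 ± 94.5 in V321L (SD, n = 3 and 4; -2.16 ± 0.38, edgeR adjusted p = 0.00738). It stood at 159 CPM in WT M1, which was not in the comparison, and 48 of its 103 UMIs were in the nuclei rich in GABAergic markers. All 32 genes moved the same way in the means of the other nuclei. With the replicate number as a block, 7 were higher and 1 lower, and *Tmsb4x*, *Ubb*, *Rplp1* and *Rpl19* among the named rises and all the named falls but *Gm42418* did not pass. *Rpl19* did not pass with sex as a covariate or without WT F2. Of the 5 lower genes, *Cnot2* and *Ube3a* did not pass with DESeq2, and *AY036118*, *Cnot2* and *Ube3a* did not pass with sex as a covariate. Without the nuclei rich in GABAergic markers 3 of the 5 could be tested and *Ube3a* did not pass. Leaving out 1 mouse ended the call of *Ube3a* for WT F2, WT M2 and V321L F1, M1 and M2, of *AY036118* for WT F2 and V321L F1, F2 and M1, and of *Cnot2* for WT F2 and M2.

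**Figure D5:**
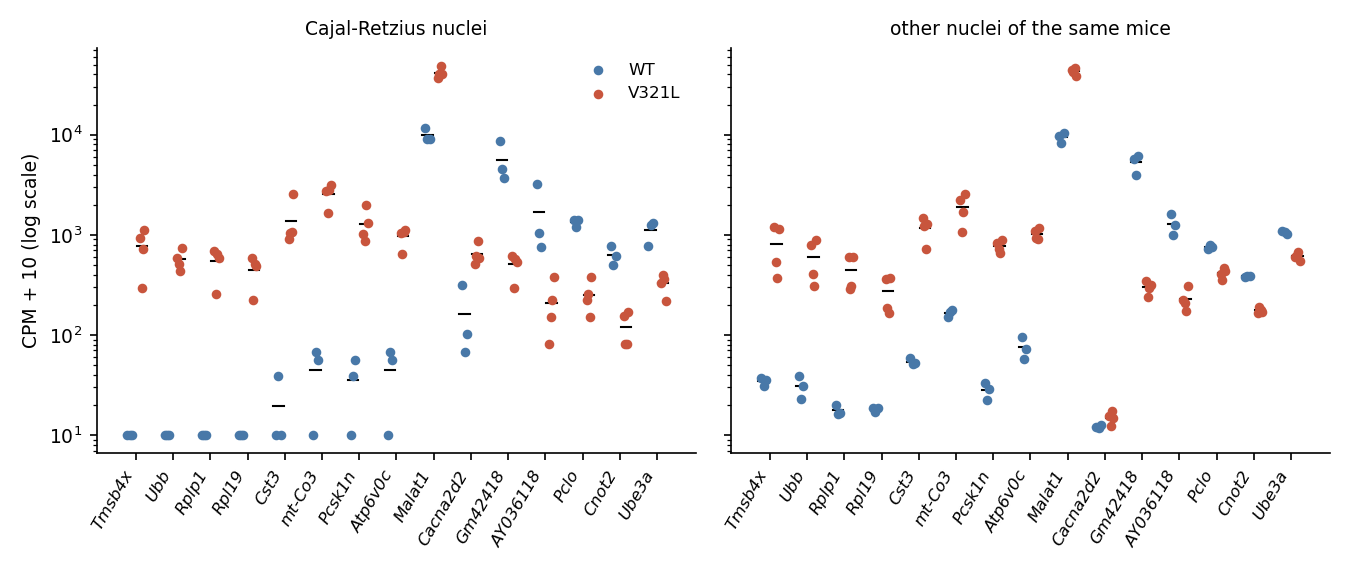
CPM + 10 (y axis, log scale) of 15 genes (x axis) in WT and V321L mice (points, 3 and 4 mice; line, mean), in CR nuclei on the left and in the other nuclei of the same mice on the right. The genes that are apart between the genotypes in CR nuclei move the same way in the other nuclei.

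Of the 16 CR identity genes, 2 could be tested between the genotypes, beside 8.65% higher and 1.60% lower of all 312 genes. *Car10* did not pass. *Cacna2d2* was among the 32, with 153 ± 136 CPM in WT and 633 ± 151 in V321L (SD, n = 3 and 4; 2.69 ± 0.55, edgeR adjusted p = 0.0138). Among nuclei with *Trp73*, *Lhx1*, *Lhx5* or *Ebf3* its edgeR adjusted p was 0.0701, and with the replicate block 0.126. The nuclei rich in GABAergic markers, which were mostly WT, held 1 of its 60 UMIs. Few genes of the other lists had enough counts to be tested here. Of those tested, 0 passed: 2 of 22 reelin pathway genes, 9 of 23 glutamate receptor genes, 2 of 15 GABA and glycine receptor genes, 6 of 26 channel genes, 4 of 23 guidance genes, 3 of 8 neuregulin and ErbB genes and 1 of 7 glutamate transmission genes were tested, and 0 of 3 GABA transmission genes. The rule markers were not tested.

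The genotype difference was set against that of the other nuclei for 12640 genes, of which 0 were higher (0%) and 4 lower (0.0316%) by the edgeR interaction test. They were *Cadps2*, *Lhfpl3*, *Pde3a* and *Grik1*. *Cadps2*, a gene of dense-core vesicle release, had 42 UMIs in WT and 0 in V321L CR nuclei, and 41 of the 42 were in the nuclei rich in GABAergic markers. *Pde3a*, a phosphodiesterase, had all 35 UMIs in them, and *Grik1*, a kainate receptor subunit, 56 of 59. *Lhfpl3* had 26 UMIs, all in WT, 7 of them in those nuclei. At an unadjusted p under 0.05 there were 403 genes. In simulated data of these depths the interaction test seldom found differences of known size, so a gene that it did not call is not shown to have the same genotype difference in both classes. Without these 10 nuclei edgeR called 0 genes (462 unadjusted), without WT F2 also 0 (558 unadjusted) and without V321L M1 0 (705 unadjusted). DESeq2 called 7 other genes, all higher.

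ATAC counts near genes were not used to choose the nuclei, beyond the minimum of 500 counts over all peaks. The peaks within 20 kb of the starts of the 6 markers held 74 counts in the CR nuclei of the 7 mice. In CPM of all ATAC counts this was 303, 120 and 216 in WT F1, F2 and M2 and 455, 581, 267 and 66.1 in V321L F1, F2, M1 and M2, against 109 to 156 in the other nuclei. CR nuclei had 287 ± 181 and the others 135 ± 16.4 (SD, n = 7), and they were higher in 5 of 7 mice (two-sided exact sign-flip permutation test, p = 0.0625; the smallest possible is 0.0156). The p depended on the setting. It was 0.0313 against other nuclei matched for ATAC counts and with WT M1 added, 0.0781 with peaks within 50 kb, 0.250 with peaks within 2 kb (higher in 3 of 7 mice) and 0.219 for nuclei with *Trp73*, *Lhx1*, *Lhx5* or *Ebf3* (4 of 6 mice), all by the same exact test. For single genes the counts in the CR nuclei of all 8 mice were divided by those that the rate in the other nuclei of the same mice would give. These ratios rest on few counts and few mice. The ratio was 6.57 at *Reln* (8 counts, higher in 2 of 8 mice), 5.40 at *Ebf3* (7 counts, 3 mice), 5.18 at *Ndnf* (11 counts, 4 mice), 2.49 at *Lhx5* (10 counts, 4 mice), 1.93 at *Trp73* (33 counts, 6 mice) and 1.03 at *Lhx1* (12 counts, 3 mice). Among identity genes outside the rule it was 7.37 at *Slc17a6* (9 counts), 5.30 at *Cacna2d2* (11) and 4.50 at *Nhlh2* (10), each higher in 2 of 8 mice, and 14.6 at the neighbouring genes *Zic1* and *Zic4*, which share the same 19 counts (4 mice). It was 6.67 at *Barhl2* and 4.11 at *Ebf2* (2 counts each), 2.62 at *Cxcr4* (12), 2.29 at *Car10* (7) and 2.02 at *Calb2* (10). Lower ratios stood at *Emx2* (1.71, 38 counts), *Nhlh1* (1.53, 17), *Ebf1* (1.23, 6), *Tbr1* (1.07, 19), *Eomes* (0.764, 2) and *Lmo3* (0.348, 4). Of the 5 excluded genes, *Gad2* had 0 counts. The ratio was 0.327 at *Prox1* (4 counts), 0.765 at *Gad1* (7), 0.833 at *Mog* (13) and 1.77 at *Gja1* (6). The ratios were not tested.

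Across all genes ATAC gave few calls that held. Of 20741 gene windows, 0 were higher (0%) and 555 lower (2.68%) by edgeR, with the median window at -0.77 and 4466 windows at an unadjusted p under 0.05. Of the 11 identity genes tested there, 0 were called in either direction (median -0.44), as were 0 of the 4 rule markers tested (median 0.19). By library size 9 were lower, among nuclei matched for ATAC counts 5 of 1667, and with DESeq2 27 were higher and 492 lower. The CR nuclei of the 8 mice held 271608 ATAC counts in all.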

How the data were processed

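Nuclei from fresh frozen microdissected DG were made into 10x Multiome RNA and ATAC libraries, 1 of each per mouse (8 mice). The authors deposited, per library, unfiltered whole-number counts of UMIs per gene and of ATAC counts per peak, made with Cell Ranger ARC 2.0.2 per the file headers. Seurat and Signac and the mm10 genome are named in the submitters' processing notes (tool versions not given in the sources used here). Peaks differed between libraries, so ATAC of CR nuclei was set against the other nuclei of the same mouse. Libraries held 4326426 to 23582057 UMIs and 6580616 to 25552769 ATAC counts.

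From these deposited counts, nuclei were filtered and CR nuclei chosen as described, and doublet scores came from scanpy 1.11.5. The members, gene lists and tests were chosen with earlier results of these data known. UMIs were summed per mouse and class, for mice with at least 5 CR nuclei (3 WT, 4 V321L). They were tested with edgeR 4.0.16 (quasi-likelihood, TMM, low counts filtered by filterByExpr, mouse as a block between classes, Benjamini-Hochberg over all genes tested, threshold 0.05), with DESeq2 1.42.0 as an alternative, in R 4.3.3. The steps were tested on simulated data. CPM values are scaled to all UMIs of the class in that mouse, and intervals and floors (3 counts) cover counting error only. Shares and summed ATAC counts were compared by exact permutation (scipy 1.17.1). ATAC windows were peaks within 20 kb of a gene start. Named genes were the largest rises (15, 8 and 8) and falls (8, 5 and up to 8) among called genes with at least 20 UMIs and 1 direction in every mouse, besides the lists. Nothing in the labels excludes shared litters, and p-values measure the spread between these mice. Alternatives left out each mouse in turn and changed scaling, filters, thinning, matching, members, covariates and windows.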

Additional observations from a re-analysis of the deposited data

Results flagged for a closer look

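Dixon's test was run on 39 sets of 4 mice and marked 5, where chance marks about 1 in 20 sets. Among the WT mice, M1 stood apart with 318.7 CPM of *Ubb* in its CR nuclei (the others at 0) and F2 with 28.68 CPM of *Cst3* (the others at 0). These 2 values rest on 2 UMIs and 1 UMI. Among the V321L mice, M1 stood apart with 354.3 CPM of *Slc17a6*, M2 with 2526 CPM of *Cst3* and F2, on the low side, with 637.6 CPM of *Atp6v0c*.

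The genotype difference in CR nuclei differed from that in the other nuclei for 4 genes by the edgeR interaction test, with adjusted p-values of 0.0004671 for *Cadps2*, 0.005073 for *Lhfpl3*, 0.01898 for *Grik1* and 0.02264 for *Pde3a*. All 4 had UMIs in CR nuclei of WT F2 and M2, and *Cadps2*, *Lhfpl3* and *Pde3a* had 0 in every V321L mouse. The 10 nuclei rich in GABAergic markers held 41 of 42, 7 of 26, 56 of 59 and 35 of 35 of their UMIs.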

How the results depend on the processing

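The share of CR nuclei kept its direction in every setting run, and did not pass with the replicate block (difference 0.480 percentage points, exact permutation p = 0.125, the smallest that 4 pairs can give). Without 1 mouse the difference was 0.419 to 0.537. RNA calls against other nuclei were 1719 of 9926 genes tested in the main fit and 670 of 9926 by library size. Far fewer genes could be tested in matched nuclei, with 160 of 486 called. Among matched nuclei with *Trp73*, *Lhx1*, *Lhx5* or *Ebf3* 140 of 293 were called. The calls were 29 of 9555 in WT mice (22 higher) and 859 of 11866 in V321L mice (158 higher), and ranged from 1271 to 1816 without 1 mouse. Calls against GABAergic nuclei rose to 866 with no filter, most of them lower, and ranged from 167 to 290 without 1 mouse. Genotype calls were 137 with no filter, 21 without the nuclei rich in GABAergic markers and 8 with the replicate block, and ranged from 14 without V321L F1 and 19 without WT F2 to 123 (61 higher, 62 lower) without WT F1. The numbers did not pair the mice (r of same-numbered mice -0.238 for F1, 0.166 for F2 and 0.449 for M2). Interaction calls were 7 with DESeq2, 11 by library size, 2 in matched nuclei and 0 without the nuclei rich in GABAergic markers, and ranged from 0 (without WT F2 or V321L M1) to 19 (without WT F1). The 7 and the 4 among nuclei with the 4 specific markers shared 0 genes with the main 4. ATAC windows called were 298 within 2 kb, 222 within 50 kb, 5 in matched nuclei, 171 among nuclei with the 4 specific markers and 9 by library size, and ranged from 26 without V321L M1 to 183 without WT M2. The 6-marker ATAC difference was 190.4 in matched nuclei and 143.7 with all 8 mice, both at exact permutation p = 0.03125, but 69.81 within 2 kb (p = 0.25), 187.9 within 50 kb (p = 0.07813) and 136.9 for nuclei with the 4 specific markers (p = 0.2188) by the same exact test, and ranged from 104.9 to 184.5 without 1 mouse. The causes were not tested. Of the single-gene values, 684 stayed on their side of the threshold, 41 no longer passed and 0 reversed. Settings that removed the nuclei rich in GABAergic markers, the matched set and the thinned shares with the 4 specific markers, library sizes for ATAC and all 8 mice for ATAC were chosen after seeing the data. CR nuclei were few and shallow, WT M1 gave only 3, and genes under the filter could not be tested.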
